A study of Mus musculus with 18 samples.

Results

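The BCL2 family genes followed here are 9 genes whose products decide whether a mitochondrion releases the factors that start apoptosis: Bcl2, Bcl2l1, Mcl1, Bcl2l11, Bmf, Bad, Bid, Bax and Bak1. Members were found as non-control array probes whose RefSeq transcript maps to one of these symbols, which gave 19 probes. Of the 9 members, 8 were among the 16022 genes tested together. Bak1 has 1 probe, whose spot was marked as an outlier on 1 array, so it was fitted on its other arrays and is reported apart.

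RNA came from mouse embryonic stem cells of strain 129SV, hybridised to 18 Agilent 1-colour arrays. By the labels all cells carried the Esrrb knockout and the 4-hydroxytamoxifen-responsive kinase fusion Raf-ErT2, through which 4-hydroxytamoxifen (4OHT) drives Mek and ERK. Cells labelled Rescue also held an Esrrb transgene and cells labelled KO an empty vector, and Esrrb encodes a nuclear receptor of the pluripotency network. Cultures in serum and LIF with 2 uM Chir99021, a GSK3 inhibitor, were changed for 24 h to 250 nM PD173074, an FGF receptor inhibitor, in its place. Each line was titled 0h (no 4OHT), 8h (250 nM 4OHT for 8 h) or 8h2h (the same 8 h, then a Mek inhibitor for 2 h), with 3 arrays per group. The labels name no separate cultures for replicates a, b and c, so p-values measure only the spread between these arrays, which may be technical. Nor do they say whether a line was 1 clone.

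Before the results, 3 points on the arrays bear on every value. The source name disagrees with the title on 12 arrays as to which of 8h and 8h2h received the Mek inhibitor. Groups follow the titles here, and the 5 ERK outputs Dusp6, Spry2, Spry4, Egr1 and Etv4 were higher at 8h than at 0h in 30 of 30 same-slide pairs and lower at 8h2h than at 8h in 30 of 30. Esrrb signal was not lower with the KO label at any titled time, running from 3.5 to 4.09 on the KO-labelled 8h arrays against 1.75 to 2.15 on the Rescue-labelled ones, and no source used here places its probe relative to the deletion. The lines are therefore called KO-labelled and Rescue-labelled throughout. One array, KO-labelled 8h2h replicate b, stands apart, with 88.6% of probes well above background against 46.6% to 56.4% on the other KO-labelled arrays, and it correlated with its replicates at 0.943 to 0.945 where other replicates reached 0.983 to 0.996. All 8 embryonic stem cell markers were well above background in every group, though their levels differed between groups, as given below.

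In the BCL2 family, survival proteins (here Bcl2, Bcl2l1, which encodes BCL-XL, and Mcl1) bind and hold back the killers. BH3-only proteins (Bcl2l11, which encodes BIM, Bmf, Bad and Bid) sense stress and either block the survival proteins or trigger the effectors, and the effectors Bax and Bak1 open the outer mitochondrial membrane. ERK is known to restrain BIM, marking the protein for destruction and keeping FOXO factors, which can activate its gene, out of the nucleus. Embryonic stem cells are known as cells primed for mitochondrial apoptosis.

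The promoter windows of the 3 members that rose in both lines at 8h and of Bmf, which fell and then rose at 8h2h, are printed. That of Bax, which also fell in both lines at 8h, was searched but is not printed. Each window runs from 250 bases before to 50 bases after an annotated start in RefSeq (build GRCm38.p6), at the most upstream start where a gene has several: chr2:128125788-128126087 on the plus strand for Bcl2l11, and on the minus strand chr2:152831679-152831978 for Bcl2l1, chr6:120916775-120917074 for Bid and chr2:118549637-118549936 for Bmf. Sequences read 5′ to 3′ along the gene's strand, with matches to the searched motifs in capitals.
Bcl2l11: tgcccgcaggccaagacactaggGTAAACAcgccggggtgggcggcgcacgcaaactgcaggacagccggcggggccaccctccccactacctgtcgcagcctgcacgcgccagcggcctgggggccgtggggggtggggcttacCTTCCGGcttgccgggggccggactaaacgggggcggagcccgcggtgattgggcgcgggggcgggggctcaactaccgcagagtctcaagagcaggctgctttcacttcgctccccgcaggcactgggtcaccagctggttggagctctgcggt
Bcl2l1: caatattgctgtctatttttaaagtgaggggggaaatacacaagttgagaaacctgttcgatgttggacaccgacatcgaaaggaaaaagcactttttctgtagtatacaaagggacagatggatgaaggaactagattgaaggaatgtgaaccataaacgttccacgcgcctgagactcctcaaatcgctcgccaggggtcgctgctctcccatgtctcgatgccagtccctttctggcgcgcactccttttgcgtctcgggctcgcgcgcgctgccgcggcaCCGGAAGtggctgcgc
Bid: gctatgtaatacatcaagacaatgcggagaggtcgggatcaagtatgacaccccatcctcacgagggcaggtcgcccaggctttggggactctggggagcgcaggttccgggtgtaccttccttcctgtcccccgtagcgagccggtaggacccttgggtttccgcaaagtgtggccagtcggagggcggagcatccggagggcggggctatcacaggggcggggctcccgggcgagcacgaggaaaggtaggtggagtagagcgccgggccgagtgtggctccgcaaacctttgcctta
Bmf: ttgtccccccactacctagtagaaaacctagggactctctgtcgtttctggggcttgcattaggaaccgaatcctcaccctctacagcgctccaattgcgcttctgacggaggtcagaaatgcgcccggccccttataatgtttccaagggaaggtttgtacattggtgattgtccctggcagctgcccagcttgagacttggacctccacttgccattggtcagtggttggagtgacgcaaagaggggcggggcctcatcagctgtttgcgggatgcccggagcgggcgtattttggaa

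Motifs were searched on both strands in the 15 windows of the 9 members, and the 6 motifs do not overlap each other. The FOXO motif TGTTTAC was found in 1 window, that of Bcl2l11, as its reverse complement GTAAACA, and 3.65% of the 32851 windows in the RefSeq table hold it. The ETS motif CCGGAAG stood in 3 windows, those of Bcl2l1, Mcl1 and the same Bcl2l11 window, against 8.86% of all windows. The E-box CACGTG stood in the Bax window (7.15% of all windows). None of the 15 windows held the AP-1 motif TGANTCA (7.81% of all windows), the CRE motif TGACGTCA (1.79%) or the EGR motif GCGTGGGCG (0.612%). These are matches of letters and were not tested as sites.

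Values below are log2 of the processed signal minus the array's 75th percentile, so 0 is that percentile and each whole step is a doubling. Levels of different probes are not comparable. A difference is given with its standard error and called at an adjusted p below 0.05 in limma. Replicates a, b and c are 3 slides, each holding all 6 groups in a fixed place, so a group cannot be told apart from its place on the slide. Groups of 3 arrays that do not overlap are common here: 35.5%, 48% and 36.5% of all genes between the lines at 0h, 8h and 8h2h, 48.1% and 43.2% at 8h against 0h (Rescue-labelled first), 28.9% and 22.7% at 8h2h against 8h, and 41.9% and 35.5% at 8h2h against 0h.

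Bcl2l11 had the largest change of the 8 members tested at 8h against 0h in each line. At 8h2h against 8h it had the largest change on the probe read for each gene, but on the mean of each gene's kept probes Bmf (1.12 and 1.38, Rescue-labelled first) changed more than Bcl2l11 (-0.87 and -1.05). Read from its brightest probe, Bcl2l11 rose over 5-fold by 8h, fell back at 8h2h, and was still above its 0h level. On the Rescue-labelled arrays a, b and c its probe read 1.71, 1.52 and 1.51 at 0h, 4.20, 3.88 and 3.80 at 8h, and 2.26, 2.07 and 2.04 at 8h2h. On the KO-labelled arrays it read 0.94, 1.41 and 0.94 at 0h, 3.90, 3.84 and 3.72 at 8h, and 1.73, 1.61 and 1.63 at 8h2h. All 6 arrays titled 8h lie above all 12 others. From high to low the groups stand as 8h in both lines, which overlap, then Rescue-labelled 8h2h, then KO-labelled 8h2h and Rescue-labelled 0h, which overlap, and last KO-labelled 0h.

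The rise at 8h was 2.38 ± 0.14 on the log2 scale (SE, 5.22-fold, limma adjusted p = 2.19e-08) with the Rescue label and 2.72 ± 0.14 (6.58-fold, limma adjusted p = 8.71e-09) with the KO label. Both calls held in all 30 alternative settings. From 8h to 8h2h Bcl2l11 fell by 1.84 ± 0.14 (limma adjusted p = 2.28e-06) and by 2.16 ± 0.14 (limma adjusted p = 3.3e-07). Against 0h it was still higher at 8h2h, by 0.54 ± 0.14 (adjusted p = 0.0118) and 0.56 ± 0.14 (adjusted p = 0.0101) in limma. The Rescue-labelled call of 8h2h against 0h ended without Rescue-labelled 8h2h replicate a (0.48, adjusted p = 0.0534) and with no scaling between arrays (0.95, adjusted p = 0.0674), and the KO-labelled one ended when the compared arrays alone were fitted.

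**Figure D1:**
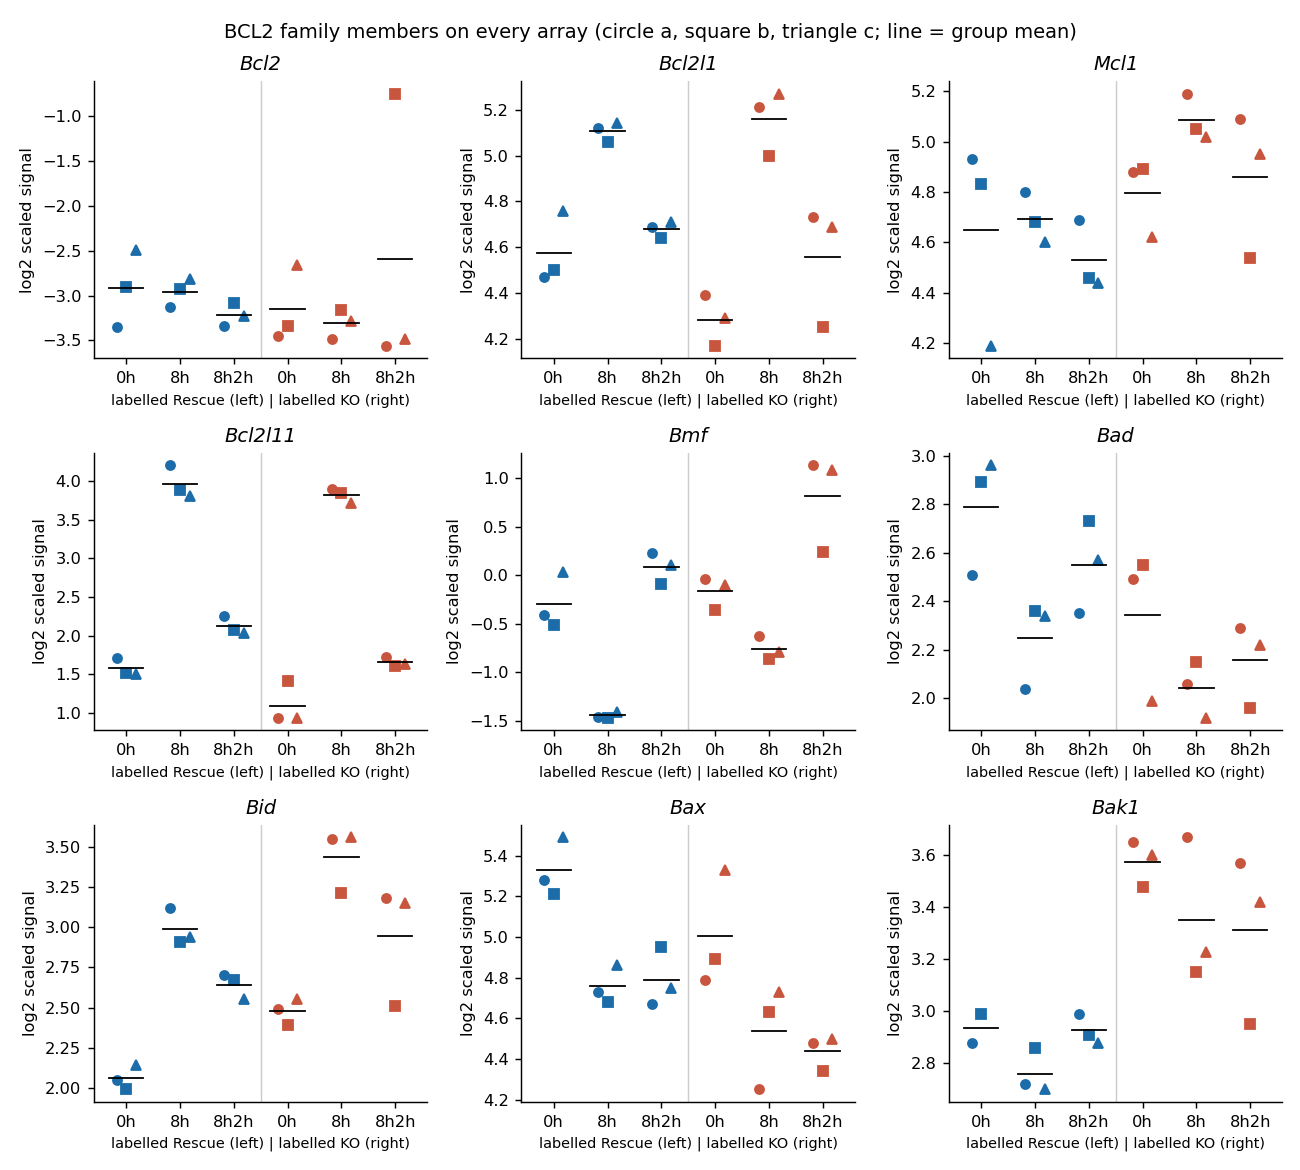
Log2 scaled signal of each of the 9 members (vertical axes, each panel with its own scale) on the 18 arrays by group, with 1 point per array and the group mean as a line. Bcl2l11 sits at 3.72 to 4.20 on the 6 arrays titled 8h and at 0.94 to 2.26 elsewhere, Bmf runs the other way, and the KO-labelled 8h2h square in the Bcl2 panel is the array that stands apart (-0.75). The Bak1 panel lacks the outlier spot on Rescue-labelled 0h replicate c.

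The array holds 4 Bcl2l11 probes, and they gave the same picture of the rise and different pictures of the return. At 8h against 0h all 4 were higher and called in both lines, from 2.38 to 3.02 on the log2 scale with the Rescue label and from 2.25 to 2.72 with the KO label. At 8h2h against 8h all 4 were lower, but by amounts from -1.84 to -0.43 (1 of 4 called) with the Rescue label and from -2.16 to -0.27 (2 of 4 called) with the KO label. The probe A_52_P158527, read for the gene because its signal is highest, marks the large end of both ranges. The probe A_51_P484880, assigned to the same transcript NM_207680, differed by -0.62 ± 0.23 with the Rescue label (limma adjusted p = 0.306) and by -0.82 ± 0.23 with the KO label (adjusted p = 0.0585). For A_55_P2504051, assigned to NM_001284410, the difference was -0.58 ± 0.20 (adjusted p = 0.238) and -0.96 ± 0.20 (adjusted p = 0.0122) in limma. On the mean of the 4 probes the Rescue-labelled difference was -0.87 and no longer called (adjusted p = 0.0653), while 8h2h stood above 0h by 1.77 (adjusted p = 7.50e-05) and 1.38 (adjusted p = 6.53e-04).

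The dimmest Bcl2l11 probe, A_52_P348214, was well above background on none of the 3 KO-labelled 0h arrays. Against that group its 8h signal was at least 2.71-fold higher. Its mean 8h2h signal was at least 2.25-fold higher, but that value leans on KO-labelled 8h2h replicate b, the array that stands apart. Replicate b read -1.78, where a and c read -4.21 and -3.75, beside a bound of -4.42 for the dim group. For these bounds the dim group is set at its own signal or, if higher, at each array's lowest signal above background.

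**Figure D2:**
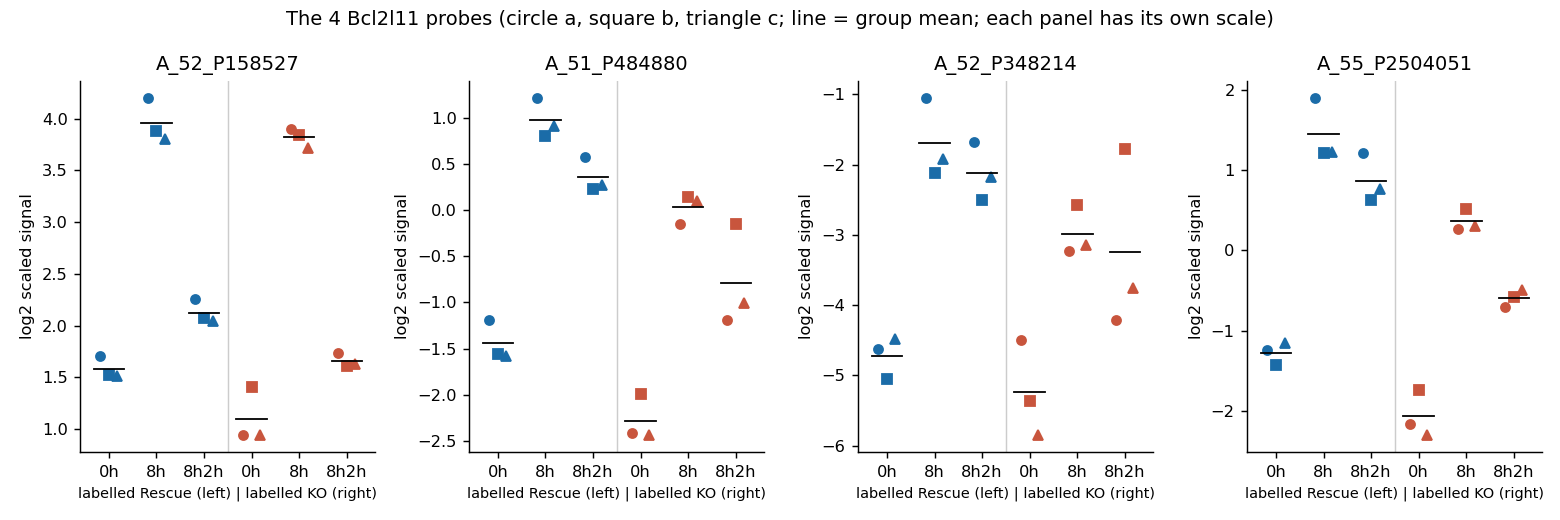
Log2 scaled signal of the 4 Bcl2l11 probes (vertical axes, each panel with its own scale) on the 18 arrays by group, 1 point per array and the mean as a line. The probe at left, read for the gene, returns most of the way at 8h2h; the other panels stay nearer their 8h level (Rescue-labelled falls of -0.62, -0.43 and -0.58).

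Bcl2l11 was also lower on KO-labelled than Rescue-labelled arrays before and after the pulse. The difference was -0.48 ± 0.14 at 0h (limma adjusted p = 0.027) and -0.46 ± 0.14 at 8h2h (adjusted p = 0.0276), and the groups did not overlap. At 8h it was -0.14 ± 0.14 (adjusted p = 0.538), and the groups overlapped. The 0h call ended without Rescue-labelled 0h replicate a or KO-labelled 0h replicate a or c (adjusted p from 0.0915 to 0.114), and the 8h2h call ended without Rescue-labelled 8h2h replicate a or b or KO-labelled 8h2h replicate b or c (from 0.0533 to 0.104). All 4 probes were lower with the KO label at 0h, 8h and 8h2h, called in 3, 2 and 3 of them. On their mean the 0h call ended (-0.66, adjusted p = 0.064), and the 8h difference was -0.86 (adjusted p = 0.0148), a call that the probe read for the gene did not give. The 0h call also ended under normexp background correction, when the compared arrays alone were fitted and with no scaling between arrays, and the 8h2h call under normexp, quantile normalization and no scaling. The size of the 8h rise did not pass a test of difference between the lines (0.34 ± 0.20, adjusted p = 0.577). The other 3 probes gave the opposite sign (-0.11, -0.77 and -0.28), and none of them was called.

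Bmf, the BH3-only protein that binds the dynein light chain, moved against Bcl2l11. On Rescue-labelled arrays a, b and c it read -0.41, -0.51 and 0.03 at 0h, -1.46, -1.47 and -1.41 at 8h, and 0.23, -0.09 and 0.10 at 8h2h. On KO-labelled arrays it read -0.04, -0.36 and -0.10 at 0h, -0.63, -0.87 and -0.79 at 8h, and 1.13, 0.24 and 1.08 at 8h2h. In each line the 3 arrays titled 8h lie below the other 6.

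At 8h Bmf fell by 1.15 ± 0.21 with the Rescue label (2.22-fold, limma adjusted p = 7e-04) and by 0.60 ± 0.21 with the KO label (1.51-fold, adjusted p = 0.0462). The second of these is a weak call: it held in 13 of 30 alternatives and ended when any 1 of 12 arrays was left out, among them all 3 Rescue-labelled and all 3 KO-labelled 8h arrays (adjusted p from 0.0543 to 0.133). The first ended with no scaling between arrays (-0.81, adjusted p = 0.0878). At 8h2h against 8h Bmf rose by 1.53 ± 0.21 (2.88-fold, limma adjusted p = 6.83e-04) and 1.58 ± 0.21 (2.99-fold, adjusted p = 2.72e-04). Against 0h the KO-labelled 8h2h arrays were higher by 0.98 ± 0.21 (limma adjusted p = 0.00342), and the Rescue-labelled ones differed by 0.37 ± 0.21 (adjusted p = 0.231). Both KO-labelled calls at 8h2h ended when the compared arrays alone were fitted (limma adjusted p = 0.0841 against 8h and 0.099 against 0h).

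Between the lines Bmf was higher with the KO label at 8h (0.68 ± 0.21, limma adjusted p = 0.0281) and at 8h2h (0.74 ± 0.21, adjusted p = 0.0194), with groups that did not overlap, and at 0h the difference was 0.13 ± 0.21 (adjusted p = 0.733). The 8h call ended without any 1 of 5 arrays, Rescue-labelled 8h a, b or c or KO-labelled 8h a or c (adjusted p from 0.0644 to 0.106), and the 8h2h call without KO-labelled 8h2h a or c or Rescue-labelled 8h2h b or c (from 0.0531 to 0.0828). Under normexp background correction (limma adjusted p = 0.0754) and with no scaling between arrays (0.131) the 8h call ended too. The 8h2h call also ended with no scaling (limma adjusted p = 0.0682) and when the compared arrays alone were fitted (0.148). The gain from 0h to 8h2h was 0.61 ± 0.29 larger with the KO label, which was not called (limma adjusted p = 0.38). Without KO-labelled 8h2h replicate b it was 0.89 (adjusted p = 0.0334), and on the mean of the probes 0.73 (adjusted p = 0.0283). The mean of the probes keeps that array, and the gene's other probe gave 0.05, 1.75 and 0.73 on slides a, b and c. That other probe, A_51_P482239, differed at 8h by -0.38 and -0.01, and was not called there in either line. At 8h2h against 8h it was higher by 0.71 ± 0.29 with the Rescue label, which was not called (limma adjusted p = 0.369). With the KO label it was higher by 1.19 ± 0.29 (limma adjusted p = 0.0264), with 0.72, 2.11 and 0.74 on slides a, b and c. This probe was above background on 2 of 3 KO-labelled 0h arrays.

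Bid, the BH3-only protein that caspase 8 cuts into its active form, rose at 8h in both lines and kept part of the rise. On Rescue-labelled arrays a, b and c it read 2.05, 1.99 and 2.14 at 0h, 3.12, 2.91 and 2.94 at 8h, and 2.70, 2.67 and 2.55 at 8h2h. On KO-labelled arrays it read 2.49, 2.39 and 2.55 at 0h, 3.55, 3.21 and 3.56 at 8h, and 3.18, 2.51 and 3.15 at 8h2h. The 0h and 8h arrays did not overlap in either line, and KO-labelled 8h2h replicate b lies among the 0h arrays. The rise at 8h was 0.93 ± 0.16 (1.90-fold, limma adjusted p = 4.45e-04) and 0.96 ± 0.16 (1.95-fold, adjusted p = 3.59e-04), and both calls held in all 30 alternatives.

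At 8h2h Bid was above 0h by 0.58 ± 0.16 with the Rescue label (limma adjusted p = 0.0159) and by 0.47 ± 0.16 with the KO label (adjusted p = 0.0434). The first call ended without Rescue-labelled 8h2h replicate a or b or Rescue-labelled 0h replicate b (adjusted p from 0.0519 to 0.0533), and the second ended without any 1 of 15 of the 18 arrays (from 0.0503 to 0.14). The change from 8h to 8h2h was -0.35 ± 0.16 (adjusted p = 0.415) and -0.49 ± 0.16 (adjusted p = 0.0779) in limma, and with the slide as a block the second passed (adjusted p = 0.0343). Bid read higher on KO-labelled than Rescue-labelled arrays, by 0.42 ± 0.16 at 0h (adjusted p = 0.0827) and 0.45 ± 0.16 at 8h (adjusted p = 0.0538), with no overlap. Neither was called, and both were with the slide as a block (adjusted p = 0.0386 and 0.0229) and without KO-labelled 8h2h replicate b (0.011 and 0.00569). At 8h2h the difference was 0.31 ± 0.16 (adjusted p = 0.192), and without that array it was 0.52 (adjusted p = 0.00506).

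Bcl2l1, which encodes the survival protein BCL-XL, rose alongside the killers Bcl2l11 and Bid at 8h. Rescue-labelled arrays a, b and c read 4.47, 4.50 and 4.76 at 0h, 5.12, 5.06 and 5.14 at 8h, and 4.69, 4.64 and 4.71 at 8h2h. KO-labelled arrays read 4.39, 4.17 and 4.29 at 0h, 5.21, 5.0 and 5.27 at 8h, and 4.73, 4.25 and 4.69 at 8h2h. All 6 arrays titled 8h lie above the other 12. The rise was 0.53 ± 0.13 (1.44-fold, limma adjusted p = 0.00658) with the Rescue label and 0.88 ± 0.13 (1.84-fold, adjusted p = 1.6e-04) with the KO label, and both held in all 30 alternatives. The lines' difference in this rise was 0.35 ± 0.18 (adjusted p = 0.502). All 5 Bcl2l1 probes were higher at 8h in both lines, and 2 and 3 of them were called. One of the 3 with the KO label, A_55_P2500448 (1.40 ± 0.46, limma adjusted p = 0.0437), was well above background on 1 of 3 KO-labelled 0h arrays.

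After the inhibitor Bcl2l1 fell by 0.60 ± 0.13 with the KO label (limma adjusted p = 0.0112). That call ended without KO-labelled 8h replicate c (-0.55, adjusted p = 0.0599) and on the mean of the 5 probes (-0.20, adjusted p = 0.68). It also ended when the compared arrays alone were fitted (limma adjusted p = 0.237) and with no scaling between arrays (-0.45, adjusted p = 0.528). On slides a and c all 5 probes were lower, from -0.90 to -0.48. On slide b, which holds the array that stands apart, the probes not read for the gene changed by 1.90, 0.01, 1.40 and 1.34. With the Rescue label the change was -0.43 ± 0.13 (adjusted p = 0.113), nearly alike on the 3 slides (-0.43, -0.43 and -0.44), and it passed with the slide as a block (adjusted p = 0.0379) and without KO-labelled 8h2h replicate b (0.0272). At 8h2h against 0h the differences of 0.10 ± 0.13 and 0.27 ± 0.13 were not called. In the KO-labelled line the second was 0.43 (adjusted p = 0.0168) without KO-labelled 8h2h replicate b.

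On the probe read for each gene, the other survival genes gave no call in any of the 12 comparisons. Mcl1, whose short-lived protein binds BIM, ranged from 4.19 to 5.19 over the 18 arrays. Its largest difference was 0.40 ± 0.18 between KO-labelled and Rescue-labelled arrays at 8h (limma adjusted p = 0.148), which passed without Rescue-labelled 0h replicate c (adjusted p = 0.0494) and when the compared arrays alone were fitted (0.0275). Bcl2, the family's founding survival gene, read between -3.56 and -2.49 on 17 arrays and -0.75 on KO-labelled 8h2h replicate b, the array with the high background. Its differences within a line or a time had an SE of 0.54, against 0.13 to 0.21 for the other 7 members tested. The gene's other probe, A_52_P534870, was above background on all 3 arrays only in the Rescue-labelled 0h group. There it averaged -4.43, against -6.08 at 8h, when 1 of 3 arrays was above background, and this fall was called (-1.64 ± 0.44, limma adjusted p = 0.0124). It was also called lower on KO-labelled than Rescue-labelled 0h arrays (adjusted p = 0.00527), where none of the 3 KO-labelled arrays was above background (measured mean -6.49), so the Rescue-labelled signal was at least 1.01-fold higher. The 2 Bcl2 probes thus differ in their calls.

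Bax, the effector that pores the mitochondrial membrane, fell at 8h and was still lower at 8h2h in both lines. Rescue-labelled arrays a, b and c read 5.28, 5.21 and 5.49 at 0h, 4.73, 4.68 and 4.86 at 8h, and 4.67, 4.95 and 4.75 at 8h2h. KO-labelled arrays read 4.79, 4.89 and 5.33 at 0h, 4.25, 4.63 and 4.73 at 8h, and 4.48, 4.34 and 4.50 at 8h2h. Within each line the 0h arrays lie above all 6 later ones, and 8h and 8h2h overlap. Bax fell by 0.57 ± 0.15 (limma adjusted p = 0.0114) and 0.47 ± 0.15 (adjusted p = 0.0375) at 8h. At 8h2h it was below 0h by similar steps, -0.54 ± 0.15 (adjusted p = 0.0208) and -0.57 ± 0.15 (adjusted p = 0.016).

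Both Bax probes were called lower in these 4 comparisons. All 4 calls ended with no scaling between arrays, where the differences were -0.23, -0.15, -0.13 and -0.10, while the median of all genes moved to 0.29, 0.28, 0.36 and 0.47. The decrease of Bax is thus one relative to the other transcripts of the array. Both KO-labelled calls also ended under normexp background correction, at -0.22 (limma adjusted p = 0.228) for 8h and -0.27 (0.136) for 8h2h. They ended too when the compared arrays alone were fitted (limma adjusted p = 0.155 and 0.123). The 8h one ended without the filter on dim probes (adjusted p = 0.0686), and the 8h2h one under quantile normalization (-0.4, 0.0615). Single arrays also ended calls. The KO-labelled one at 8h ended without KO-labelled 8h a or b or KO-labelled 0h c (adjusted p from 0.0527 to 0.177), and at 8h2h without KO-labelled 0h c (0.0749). The Rescue-labelled one at 8h2h ended without Rescue-labelled 8h2h a or c or Rescue-labelled 0h c (from 0.0681 to 0.0783).

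Bad, the BH3-only protein held inactive by phosphorylation, fell in the Rescue-labelled line at 8h. Its arrays a, b and c read 2.51, 2.89 and 2.96 at 0h and 2.04, 2.36 and 2.34 at 8h, and the groups did not overlap. The difference was -0.54 ± 0.17 (limma adjusted p = 0.0286). The call ended without Rescue-labelled 8h replicate a or Rescue-labelled 0h replicate b or c (adjusted p from 0.0877 to 0.121), and with no scaling between arrays it was -0.20 (adjusted p = 0.684). With the KO label the change was -0.30 ± 0.17 (adjusted p = 0.243), and the lines' difference was not called (adjusted p = 0.816).

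Bak1, the second effector, was higher with the KO label at 0h and 8h. Rescue-labelled arrays read 2.88 and 2.99 at 0h on slides a and b, 2.72, 2.86 and 2.70 at 8h, and 2.99, 2.91 and 2.88 at 8h2h. KO-labelled arrays read 3.65, 3.48 and 3.6 at 0h, 3.67, 3.15 and 3.23 at 8h, and 3.57, 2.95 and 3.42 at 8h2h. The lines did not overlap at 0h and 8h, and at 8h2h KO-labelled replicate b lies within the Rescue-labelled range. In a fit of 16069 genes that leaves out single outlier spots, Bak1 was higher with the KO label by 0.64 ± 0.18 at 0h, where 1 Rescue-labelled array was dropped (limma adjusted p = 0.0247), and by 0.59 ± 0.16 at 8h (adjusted p = 0.0182). At 8h2h the difference was 0.39 ± 0.16 (adjusted p = 0.109). With the outlier spot kept, which read 3.13, the 0h difference was 0.57 ± 0.16 (adjusted p = 0.0208). No change of Bak1 between times was called in either line. Keeping the spot was the only alternative run for Bak1, so its calls were not tried with single arrays left out or other scaling.

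**Figure D3:**
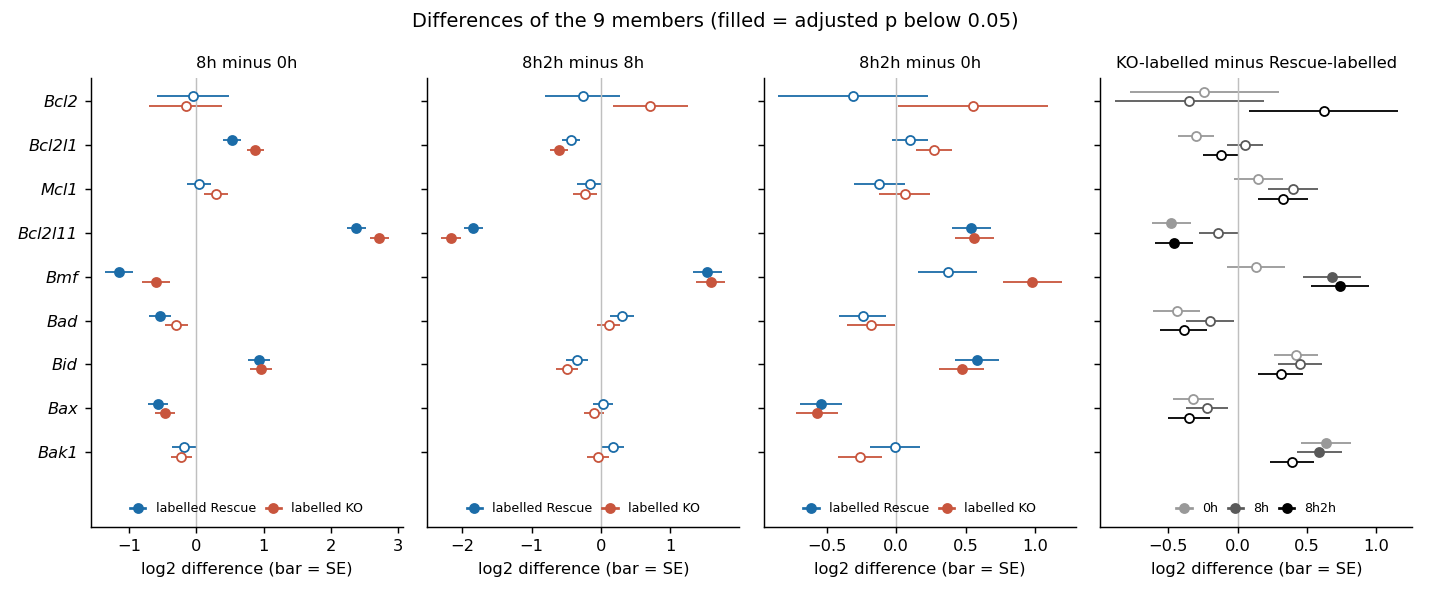
Log2 differences (horizontal axes) of the 9 members with their standard errors as bars, between titled times within each labelled line and between the lines at each time; filled points have an adjusted p below 0.05. At 8h Bcl2l11, Bid and Bcl2l1 lie right of 0 and Bmf and Bax left of 0 in both lines, and at 8h2h against 8h Bcl2l11 (-1.84 and -2.16) and Bmf (1.53 and 1.58) change sides.

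Counted over the 8 members tested together, 6 were called at 8h against 0h with the Rescue label (3 higher and 3 lower), where 29.1% of all genes were called (13% higher and 16.1% lower), and 5 with the KO label (3 higher and 2 lower), where 25.4% were (11.9% and 13.5%). From 8h to 8h2h 2 and 3 members were called, beside 2.88% and 7.35% of all genes. At 8h2h against 0h 3 and 4 were called, beside 21.3% and 22.4%. Between the lines 1, 1 and 2 members were called at 0h, 8h and 8h2h, beside 18.4%, 21.5% and 21.8% of all genes, so the members' shares there were near or below the background. Without KO-labelled 8h2h replicate b the sum of the 3 line comparisons went from 4 to 7, while the genes called over the whole array rose too, from 2942, 3450 and 3493 to 4144, 4630 and 4292. In limma none of the 8 members differed between the lines in a change over time, and none had an unadjusted p below 0.05 there, beside calls for 2.28%, 0.0562% and 2.02% of all genes. Because the members moved in both directions, their median change at 8h was 0.00 with the Rescue label and 0.06 with the KO label, against -0.05 and -0.04 over all genes. The comparisons 8h against 0h and 8h2h against 8h share the 8h arrays. The comparisons 8h2h against 0h share arrays with both. Markers of other cells moved with the 8h comparison too. Of 8 trophoblast markers 4 were called higher at 8h with the Rescue label (median 0.95), and 5 higher and 1 lower with the KO label (median 1.58). Of 7 fibroblast markers 3 and 2 were called higher (medians 0.86 and -0.01), Thy1 and S100a4 in both lines and Vim with the Rescue label. The summed linear signal of the 7 was 7.85 to 12.4 on Rescue-labelled 0h arrays and 23.1 to 31.8 at 8h, and 12.4 to 15.2 against 32.1 to 38.1 with the KO label, while Col3a1 was not well above background on any 0h array. Of the 8 embryonic stem cell markers 5 and 4 were called lower at 8h2h against 0h (Rescue-labelled first), and 1 higher in each line. Their medians were -0.66 and -0.47, and 21.3% and 22.4% of all genes were called. The part of these markers in the members' changes was not tested.

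The 5 genes whose pattern over the 18 arrays was most like that of Bcl2l11 were Slc39a14 (Pearson r = 0.974), Cnnm1 (0.967), Zfp36l2 (0.965), Nppb (0.959) and Wdr47 (0.959). The arrays share groups, slides and scaling, so these values only describe likeness. Among the members, Bcl2l1 followed Bcl2l11 most closely (r = 0.901), then Bid (0.70) and Mcl1 (0.271). Bmf ran opposite (-0.727), and Bad (-0.427), Bax (-0.409) and Bcl2 (-0.151) had negative values. The ERK outputs gave 0.878 for Spry2, 0.856 for Egr1, 0.797 for Spry4, 0.718 for Dusp6 and 0.487 for Etv4.

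Other genes of the family changed at 8h too. Of 16 further family genes, 13 were tested, and the Bcl2a1 paralogs Bcl2a1a, Bcl2a1b and Bcl2a1d were not. At 8h 6 rose and 3 fell with the Rescue label, and 5 rose and 3 fell with the KO label, beside 29.1% and 25.4% of all genes called in either direction. Pmaip1, which encodes the MCL1-binding BH3-only protein NOXA, rose and fell back like Bcl2l11. It rose by 1.65 ± 0.15 (limma adjusted p = 2.15e-06) and 2.27 ± 0.15 (adjusted p = 1.19e-07) and then fell by 1.80 ± 0.15 and 2.51 ± 0.15 at 8h2h. Against 0h its 8h2h differences of -0.15 ± 0.15 and -0.24 ± 0.15 were not called, where those of Bcl2l11 were. Bbc3, which encodes the BH3-only protein PUMA, fell and rose back like Bmf. It changed by -0.91 ± 0.19 and -0.83 ± 0.19 at 8h, then by 0.99 ± 0.19 and 0.93 ± 0.19 at 8h2h, each called. Against 0h its 8h2h differences of 0.08 ± 0.19 and 0.09 ± 0.19 were not called, where Bmf was called higher with the KO label. The BH3-only gene Hrk rose at 8h by 1.35 ± 0.46 and 2.15 ± 0.46, with 2 of 3 arrays above background at 0h in each line. Bik, another, fell by 1.76 ± 0.38 and 1.13 ± 0.38, with 2 of 3 KO-labelled 8h arrays above background. Bcl2l15 rose by 1.88 ± 0.28 and 2.31 ± 0.28.

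From 8h to 8h2h 2 of these 13 genes rose and 1 fell with the Rescue label, and 4 rose and 1 fell with the KO label, Pmaip1 being the one that fell in both, beside 2.88% and 7.35% of all genes called. Bcl2l10, an oocyte-type survival gene, rose by 2.12 ± 0.31 with the Rescue label (limma adjusted p = 0.00114). With the KO label it was not well above background on any array at 8h and was at least 2.56-fold higher at 8h2h (adjusted p = 2.38e-05). At 8h2h against 0h 6 rose and 1 fell with the Rescue label and 5 rose with the KO label, beside 21.3% and 22.4% of all genes called. Among them were Bcl2l15 (2.20 ± 0.28 and 2.84 ± 0.28) and Hrk (1.43 ± 0.46 and 2.49 ± 0.46). Bcl2l10 was called higher in both lines, by at least 1.90-fold with the KO label, while with the Rescue label 1 of 3 arrays at 0h was above background and no size is given. In these comparisons the medians of the list at 8h were 0.42 and 0.16, beside -0.05 and -0.04 over all genes.

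**Figure D4:**
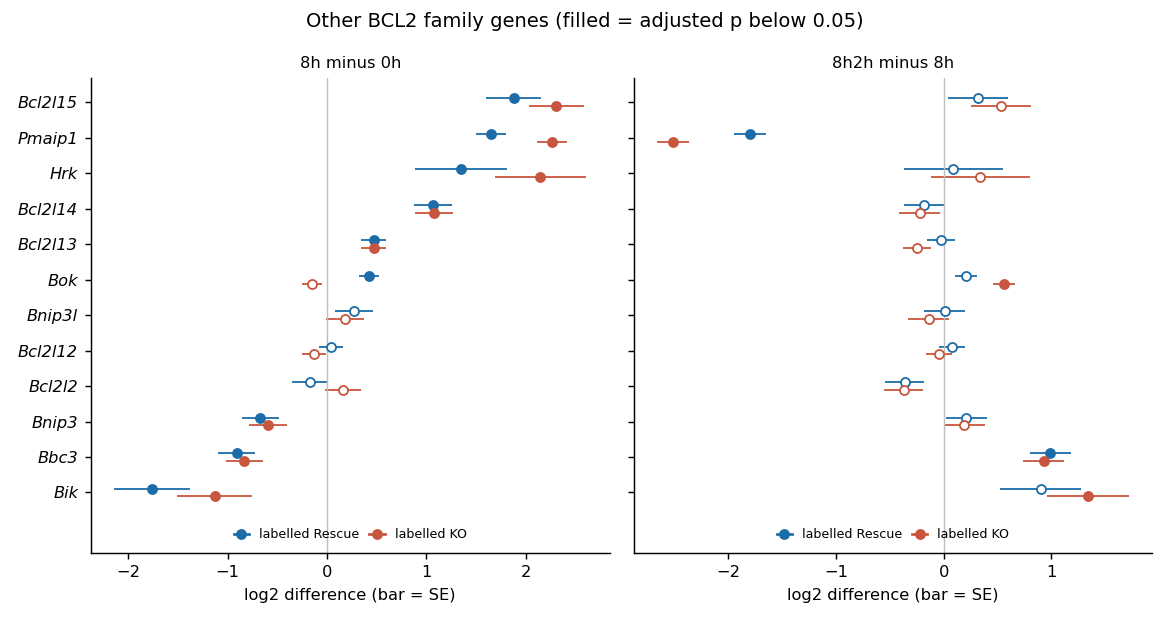
Log2 differences (horizontal axes) of 12 other BCL2 family genes with standard errors as bars, at 8h against 0h and at 8h2h against 8h in both labelled lines; filled points have an adjusted p below 0.05. Pmaip1 rises (1.65 and 2.27) and falls back (-1.80 and -2.51), and Bbc3 does the reverse; Bcl2l10 is left out because some groups were not above background.

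Between the lines 1 of the 13 family genes was higher and 4 lower with the KO label at 0h, 1 and 6 at 8h, and 1 and 4 at 8h2h, beside 18.4%, 21.5% and 21.8% of all genes called. Bcl2l15 was lower by 3.01 ± 0.28, 2.58 ± 0.28 and 2.37 ± 0.28, Pmaip1 by 1.09 ± 0.15, 0.47 ± 0.15 and 1.18 ± 0.15, and Bbc3 by 0.74 ± 0.19, 0.66 ± 0.19 and 0.72 ± 0.19 at 0h, 8h and 8h2h. Hrk was higher by 1.75 ± 0.46 at 8h and 2.00 ± 0.46 at 8h2h. The same line comparison carries a difference in trophoblast markers, 7 of 8 of which were called lower with the KO label at 0h. Their summed linear signal was 160 to 184 on Rescue-labelled 0h arrays and 13 to 21.4 on KO-labelled ones, 255 to 266 against 44.6 to 56.7 at 8h, and 230 to 253 against 38.9 to 42.8 at 8h2h. At KO-labelled 0h 3 of the 8, Cdx2, Hand1 and Plac1, were not above background on any array. Of 8 embryonic stem cell markers 5, 3 and 4 were called higher with the KO label at 0h, 8h and 8h2h, and none lower. Medians over these were 0.55, 0.33 and 0.43. Of 8 primitive endoderm markers at 0h, Lama1 was called higher with the KO label (1.18 ± 0.21) and Gata4, Gata6 and Foxa2 lower, with a median of -1.01 over the 8, and Gata4 and Sox7 were not above background on any KO-labelled 0h array. Their sum was 11.6 to 14.8 on Rescue-labelled and 23.4 to 31.8 on KO-labelled 0h arrays, opposite in direction to that median. The part of these markers in the line differences of the members and of Bcl2l15 was not tested, and a smaller number of such cells and less RNA per cell cannot be told apart in bulk RNA.

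Caspases and their partners act downstream of the mitochondrion or beside it. Of 15 caspase pathway genes, 1 rose and 3 fell at 8h with the Rescue label, and 1 rose and 5 fell with the KO label. With 29.1% and 25.4% of all genes called, the Rescue-labelled count is near the background and the KO-labelled count above it. The gene that rose was Casp8, the initiator caspase that cuts BID, by 0.62 ± 0.15 (limma adjusted p = 0.00754) and 1.06 ± 0.15 (adjusted p = 1.47e-04). Casp9, the initiator activated on the apoptosome, fell by 0.74 ± 0.13 and 0.67 ± 0.13, and Htra2 by 0.48 ± 0.12 and 0.39 ± 0.12, each called. From 8h to 8h2h limma called none of the 15 with the Rescue label, where 3 had an unadjusted p below 0.05. With the KO label it called 2, Casp9 (0.47 ± 0.13) and the adaptor Fadd (0.43 ± 0.11). Of all genes 2.88% and 7.35% were called in these comparisons. At 8h2h against 0h Casp8 was still higher, by 0.68 ± 0.15 and 1.12 ± 0.15.

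Among 21 genes that regulate or bind the family, 4 rose and 4 fell at 8h with the Rescue label and 3 rose and 4 fell with the KO label, beside 29.1% and 25.4% of all genes called. Those that fell most were the transcription factors Trp73 (-1.23 ± 0.14 and -0.86 ± 0.14) and E2f1 (-1.08 ± 0.13 and -1.29 ± 0.13), Usp9x, whose product removes ubiquitin from MCL1 (-1.04 ± 0.25 and -0.74 ± 0.25), and Dynll2, a dynein light chain that binds BMF (-0.88 ± 0.15 and -1.04 ± 0.15). Foxo1, a FOXO factor, rose by 0.51 ± 0.15 and 0.66 ± 0.15. Pim1, a kinase known to phosphorylate BAD, rose by 0.79 ± 0.18 and 0.65 ± 0.18 and then fell by 1.99 ± 0.18 and 1.61 ± 0.18 at 8h2h, to below its 0h level (-1.20 ± 0.18 and -0.96 ± 0.18, both called).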

How the data were processed

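Arrays were scanned and extracted by the authors with Agilent Feature Extraction 12.0.1.1, per the file headers. The deposited processed signal is an intensity per spot, background-subtracted and not scaled between arrays, and the deposited spot flags (other values, not intensities) mark spots well above background and outliers. The labels name Cy5, whereas the headers describe 1 green channel.

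Probes were linked to symbols by RefSeq transcript name. A probe was kept where some group had all 3 arrays well above background, probes with outlier spots were left out, and a gene was read from its kept probe with the highest mean signal. Log2 signals minus each array's 75th percentile over non-control spots entered 1 group-means model in limma 3.58.1 (R 4.3.3) over all 18 arrays, with 12 contrasts and a two-sided Benjamini-Hochberg adjustment over 16022 genes in each. All adjusted p values are limma's. The code was tested on simulated data. The number of arrays limits the precision. Members and gene lists were chosen with earlier results of these data known, and 1 gene of the caspase pathway list is not reported here. Named genes were all 9 members with each probe, up to 4 called genes per list and kind of comparison, the 5 ERK outputs and the 5 genes most like Bcl2l11. There were 30 alternatives, of which 18 left out 1 array each. Keeping the Bak1 outlier spot was chosen after seeing the data. Figures used matplotlib.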

Additional observations from a re-analysis of the deposited data

How the results depend on the processing

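Over 30 alternatives, of which 18 left out 1 array each, no called difference of the 8 members tested together changed sign. Of their 27 calls, 8 held in every alternative. At 8h the rises of Bcl2l11, Bid and Bcl2l1 in both lines did. At 8h2h against 8h the KO-labelled fall of Bcl2l11 and the Rescue-labelled rise of Bmf did. The alternative using the authors' table had the same values as the main input on every spot, so it could not end a call. The fit of each kept probe on its own left the members' estimates unchanged and could move only their adjusted p. The Bak1 calls are not among the 27. The members called summed to 4 over the comparisons between the lines, 11 at 8h against 0h, 5 at 8h2h against 8h, 7 at 8h2h against 0h and 0 for line differences of a change. Between the lines the count was 7 under quantile normalization (2759 to 3898 of all genes called at each time, against 2942 to 3493), 0 with no scaling (1011 to 1264) and 0 at an adjusted p below 0.01 (1553 to 1949). At 8h against 0h it was 6 with no scaling (2027 and 1828 of all genes, against 4667 and 4077) and 7 at 0.01 (2997 and 2569). At 8h2h against 8h it was 3 on the mean of the probes (429 and 1149 of all genes, against 462 and 1177). At 8h2h against 0h it was 3 when only the compared arrays were fitted (3355 and 1200 of all genes, against 3410 and 3595), 4 with no scaling (1690 and 2356) and 1 at 0.01 (1991 and 2001). The line differences gave 1, Bmf, on the mean of the probes. Leaving out 1 array gave 2 to 7, 9 to 11, 4 to 6, 3 to 8 and 0 to 1 calls. Apart from the threshold of 0.01, the mean of probes and the fewer arrays, which act by construction, the cause was not tested.

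Deviations of same-letter arrays from their group means correlated from -0.058 to 0.733, at over 0.1 in 28 of 45 pairs (median 0.141). Each of the 18 arrays matched best with an array of its own letter. The main model did not include the slide, so deviations shared within a slide stay in the spread that its p-values measure. With the replicate block the counts were 6, 11, 7, 7 and 0, and between the lines 3522, 4111 and 4104 of all genes were called. Single values of opposite sign, uncalled both times, made up 72 of 2892. Signal over background limited 1 probe each of Bcl2, Bcl2l11, Bcl2l1 and Bmf, none of them the probe read for the gene.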
